A study of Mus musculus with 16 samples.

Results

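Apolipoproteins are the protein coat of the particles that carry fat and cholesterol in blood, and 10 genes of their supply and assembly in the liver were described: Apob, Mttp, Apoa1, Apoa2, Apoa4, Apoa5, Apoc1, Apoc2, Apoc3 and Apoe. They were chosen by name, and all 10 were found among the 51487 listed genes that carried a symbol (78317 genes were listed in all). The series measured poly(A) RNA in powdered whole liver of wild-type C57BL/6J mice, an inbred laboratory strain. Female and male mice arrived at 6 weeks of age and were then fed for 10 weeks, either on a normal chow (fat gave 4.5% of its calories) or on a high fat diet (60%). This gave 4 groups of 4 libraries: females on the normal diet, females on the high fat diet, males on the normal diet and males on the high fat diet. The diets came from different makers, so fat content and the other differences between the diets cannot be told apart. The labels number the libraries as replicates without stating that each came from a different mouse, so the p-values measure the spread between these libraries.

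The liver exports triglyceride in very low density lipoprotein (VLDL). Microsomal triglyceride transfer protein loads lipid onto apolipoprotein B as it is made, and apolipoproteins of the A, C and E families join the particle in the liver or in blood, where they control its lipolysis and its uptake. Apoa1 and Apoa2 encode the main proteins of high density lipoprotein (HDL), and hepatic Apoa4 is known as a gene that responds to the lipid load of the liver.

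Total expected counts per library ran from 22228115 to 41420589, and all 10 genes were deeply covered, with the lowest value being 1413 expected counts for Apoc2. The 7 hepatocyte markers with a symbol were detected in every group, with a summed level of 47773 to 88056 TPM per library. Levels per library are given as CPM, counts scaled to a common library size with TMM factors (trimmed mean of M values), and levels are compared between genes only as TPM, which divides by transcript length. Called means an adjusted p under 0.05 in edgeR's quasi-likelihood test, with Benjamini-Hochberg adjustment across the 14781 genes tested. Replicates 2 and 3 of the males on the high fat diet were closer to each other than any other pair in a group (chi-square statistic per gene 4.07, the next closest pair 20.8), and replicates 1 and 4 of that group stood apart from them.

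Apoa4 was the only 1 of the 10 genes called between the diets. It was 4.27-fold higher on the high fat diet in females and 6.5-fold higher in males. Apoc3, whose protein inhibits triglyceride clearance, was higher in females than in males on both diets, by 1.84-fold on the normal diet and 1.51-fold on the high fat diet. The other apolipoprotein genes and Mttp were not called between the diets in either sex.

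Apoa4 lies beside Apoa1, Apoc3 and Apoa5 in a cluster on mouse chromosome 9, so the 250 bases before the RefSeq start site are shown for the neighbours with a promoter entry, to set the gene that was called against genes beside it that were not. Sequences are from RefSeq, build GRCm38.p6, plus strand, 5′ to 3′, with capitals marking motif matches. Apoa4 is at chr9:46240594-46240843, Apoa1 at chr9:46228380-46228629 and Apoa5 (the first of its listed starts) at chr9:46268358-46268607.
Apoa4: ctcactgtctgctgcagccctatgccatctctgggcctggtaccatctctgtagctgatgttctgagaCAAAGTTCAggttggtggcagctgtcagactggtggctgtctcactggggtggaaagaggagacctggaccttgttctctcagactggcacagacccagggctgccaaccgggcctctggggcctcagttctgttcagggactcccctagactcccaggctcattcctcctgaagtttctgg
Apoa1: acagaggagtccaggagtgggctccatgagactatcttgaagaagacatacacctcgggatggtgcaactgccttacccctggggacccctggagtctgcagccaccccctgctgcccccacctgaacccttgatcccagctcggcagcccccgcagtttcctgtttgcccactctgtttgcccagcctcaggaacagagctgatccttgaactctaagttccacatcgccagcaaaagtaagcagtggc
Apoa5: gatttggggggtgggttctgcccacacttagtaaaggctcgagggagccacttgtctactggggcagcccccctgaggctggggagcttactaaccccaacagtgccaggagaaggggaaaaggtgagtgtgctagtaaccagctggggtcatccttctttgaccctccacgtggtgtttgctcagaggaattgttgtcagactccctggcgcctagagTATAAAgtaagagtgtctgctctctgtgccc
Of the 10 genes, 8 had a promoter entry, and Apoc1 and Apoc3 had none. Both strands were searched for TATAAA, for the HNF4-type sites CAAAGTCCA and CAAAGNNCA (the first is a case of the second), for the nuclear receptor core AGGTCA, for 2 copies of AGGTCA with 1 base between them (which also holds the single core), and for TGACGT. The Apoa4 window held CAAAGTTCA, a case of CAAAGNNCA, from 182 to 174 bases before the start. CAAAGNNCA was present in 5.49% of 32851 promoter windows of this length, and among the other members only the Apob window held it. The Apoa5 window held TATAAA from 31 to 26 bases before the start, a motif found in 12.4% of windows. The Apoa1 window held none of the motifs. CAAAGTCCA occurred in 0.384% of windows, AGGTCA in 14%, its direct repeat in 0.0335% and TGACGT in 6.47%. These matches describe letters in a window and nothing about binding.

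**Figure D1:**
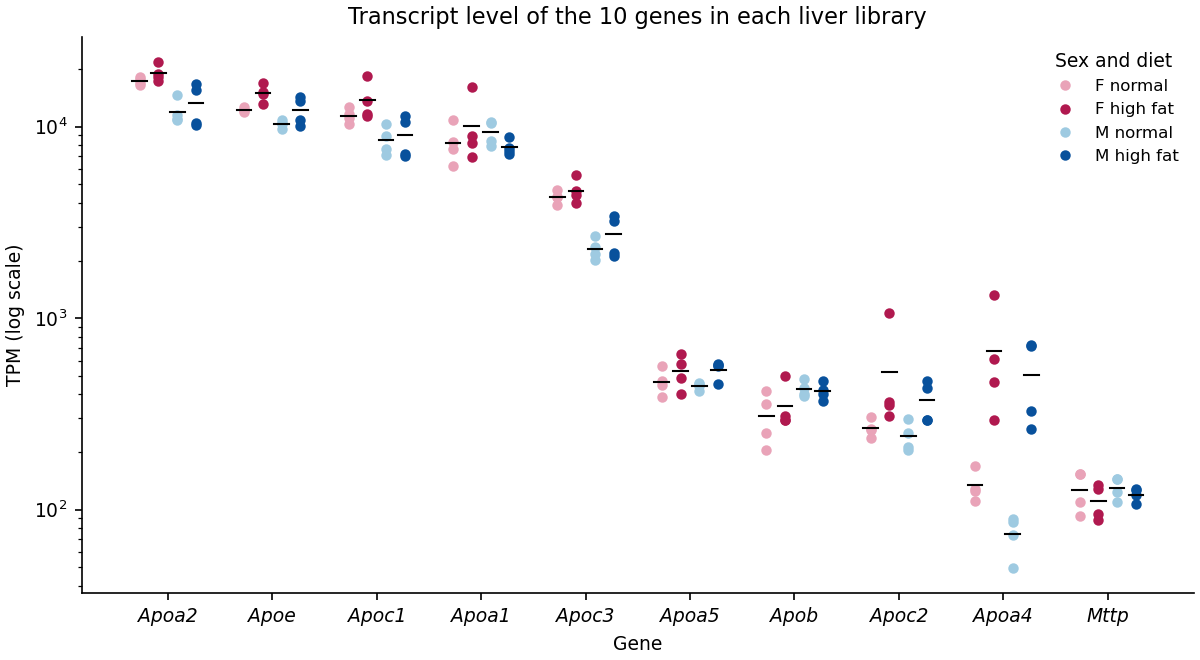
Transcript level (TPM, log axis) of each of the 10 genes in 16 liver libraries, with points for libraries and a black line for the group mean. Apoa2 had the highest mean in every group, and Apoa4 moved from 133.9 to 672.6 TPM in females and from 74.7 to 506.7 TPM in males between the normal and the high fat diet.

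On the length-corrected scale, the 10 genes spanned a wide range of levels. The order rests on lengths that differ widely. Relative to the median gene tested, the length was 0.0854 for Apoa2, 0.0565 for Apoc1, 0.466 for Apoe and 5.84 for Apob. How far the order depends on the lengths assigned to such short transcripts was not tested. The order was led by Apoa2 in all 4 groups, at a mean of 17299 ± 731.7 TPM (SD, n = 4) in females on the normal diet and 11987 ± 1780 TPM in males on that diet. Apoe, the ligand for the uptake of remnant particles by liver receptors, was second in all groups, at 12265 ± 270.5 TPM in females on the normal diet. Its libraries overlapped those of the next gene in all 4 groups, and those of Apoa2 in males on the high fat diet. Apoc1 and Apoa1 followed, and their libraries overlapped in all 4 groups. Apoc3 was the fifth in each group, at 4289 ± 326.9 TPM in females and 2307 ± 292.8 TPM in males on the normal diet. Mttp was last in 3 groups, at 111.7 to 127.4 TPM, and Apoa4 was last in males on the normal diet, at 74.7 ± 17.9 TPM. With the high fat diet Apoa4 was the sixth in females and the seventh in males, and its libraries overlapped those of the next gene in order. Together the 10 genes made up between 3.9% and 8.23% of the TPM of a library.

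Apob encodes the structural protein of VLDL, of which each particle holds a single copy. Normal diet females had 3232, 2636, 4670 and 4287 CPM, and high fat diet females had 3049, 5096, 3345 and 2884 CPM. The male libraries read 5267, 5102, 5673 and 4866 CPM with the normal diet, and 4298, 4677, 4999 and 5317 CPM with the high fat diet. The diets overlapped in both sexes. Between the diets, the log2 fold change was -0.04 ± 0.18 (SE) in females (adjusted p = 0.905) and -0.12 ± 0.18 in males (adjusted p = 0.733), with 95% confidence intervals of -0.43 to 0.34 and -0.50 to 0.27.

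Mttp encodes the transfer protein that lipidates apolipoprotein B. Females had 318.3, 380.7, 460.8 and 494.4 CPM on the normal diet and 246.9, 351, 389.9 and 251 CPM on the high fat diet. Males had 389, 391.5, 456.2 and 479.1 CPM on the normal diet and 333, 400, 402.1 and 358.7 CPM on the high fat diet. The diets overlapped in both sexes, and the lowest library of each sex was a high fat diet one. Diet log2 fold changes were -0.42 ± 0.16 in females (adjusted p = 0.099), with no call, and -0.20 ± 0.16 in males (adjusted p = 0.456). Without replicate 3 of the females on the high fat diet, the value in females was -0.54 and the adjusted p 0.04. Scaled by library totals it was -0.24, with an adjusted p of 0.306.

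Apoa4 encodes a lipid-binding protein of intestinal and hepatic lipoproteins. Females had 158.7, 184.1, 155.8 and 226 CPM on the normal diet and 1524, 332.2, 730.3 and 508 CPM on the high fat diet. Males had 72.7, 116, 96.3 and 118.6 CPM on the normal diet and 342, 936.4, 933.7 and 411.6 CPM on the high fat diet. Every high fat diet library lay above every normal diet library of its sex. The mean was 773.6 ± 526 against 181.1 ± 32.5 CPM (SD, n = 4) in females and 655.9 ± 323.6 against 100.9 ± 21.3 CPM in males. As a log2 fold change this was 2.09 ± 0.44 in females (95% confidence interval 1.14 to 3.04, adjusted p = 0.00911). In males it was 2.70 ± 0.45 (1.73 to 3.67, adjusted p = 0.00208).

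The spread within the high fat diet groups was wide. In females, replicate 1 was highest and replicate 2 lowest, and in males replicates 2 and 3 were higher than replicates 1 and 4. With replicates 2 and 3 of the males averaged into 1 library, the male log2 fold change for Apoa4 was 2.48 and the adjusted p 0.00708. The call for Apoa4 held in both sexes under all 26 alternatives to the processing. The difference between the sexes in the diet change of Apoa4, females minus males, was -0.61 ± 0.60, with a 95% confidence interval from -1.90 to 0.69 and an adjusted p of 0.727.

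**Figure D2:**
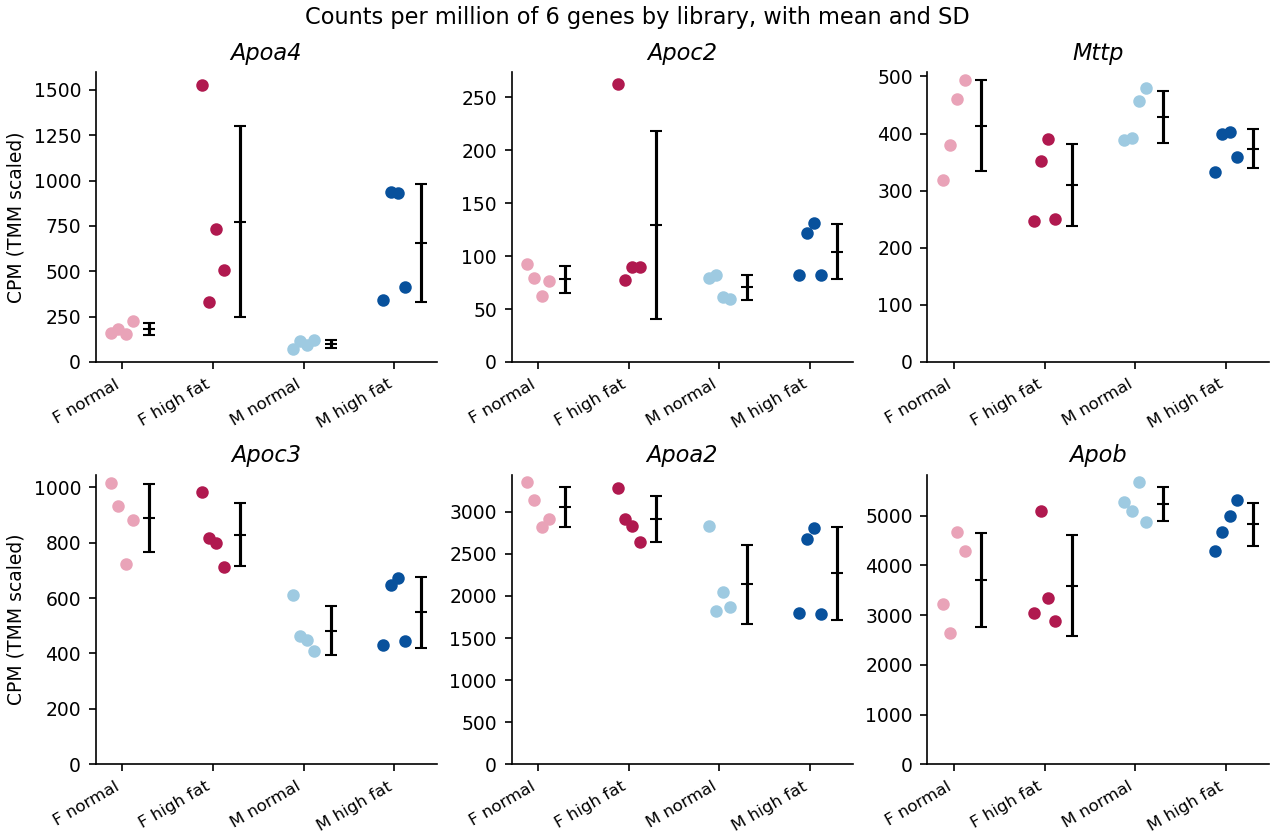
Level in each library (CPM, linear axes from 0) of 6 of the genes by sex (F, M) and diet, with the group mean and SD beside the points. The high fat diet libraries of Apoa4 do not overlap the normal diet libraries of the same sex, and the female libraries of Apoc3 lie above the male libraries on both diets.

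In the diet comparisons, 1 of the 10 genes was called higher and 0 lower in females, where 5.74% of all genes tested were called higher and 5.76% lower. In males 1 of 10 was called higher and 0 lower, against 6.03% and 5.36% of all genes. The groups of libraries did not overlap for 1 of the 10 genes in females (Apoa4) and for 2 in males (Apoa4 and Apoc2), beside 18.3% and 18.5% of all genes. The median log2 fold change over the 10 genes was 0.00 in females and 0.12 in males, beside 0.00 and 0.01 over all genes. In the test of whether the diet change differed between the sexes, 0 of the 10 genes were called by edgeR, which called 0.677% of all genes, and 0 by DESeq2. An unadjusted p under 0.05 was reached there by 0 of the 10. Scaling by library totals shifted the median of all genes in females by 0.19, and Apoa2, Apoa5, Apob and Apoc3, all near 0, then had positive diet values in females (0.12, 0.14, 0.14 and 0.09) and were still not called.

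Apoa5 encodes an activator of lipoprotein lipase and lies next to Apoa4. Its mean was 800.6 ± 167.2 CPM on the high fat diet and 831.8 ± 117.2 CPM on the normal diet in females, and 917.2 ± 111.8 against 795.5 ± 66.4 CPM in males. Libraries of the diets overlapped in both sexes, with log2 fold changes of -0.06 ± 0.15 in females (adjusted p = 0.847) and 0.21 ± 0.15 in males (adjusted p = 0.402).

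Apoa1 encodes the main HDL protein. High fat diet females had 8958, 4546, 5182 and 3703 CPM, and replicate 1 was the highest of them. Females on the normal diet had 4275 to 6972 CPM. Males had 4500 to 5505 CPM on the high fat diet and 5204 to 7463 CPM on the normal diet. The groups overlapped, with log2 fold changes of 0.06 ± 0.22 in females (adjusted p = 0.894) and -0.34 ± 0.22 in males (adjusted p = 0.354).

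Apoc2 encodes the cofactor that lipoprotein lipase needs. Females had 92.9, 79.6, 62.5 and 76.5 CPM on the normal diet and 262.5, 77, 90.1 and 89.4 CPM on the high fat diet. Males had 79.5, 82, 61.1 and 59.4 CPM on the normal diet and 82.1, 121.5, 131.2 and 82.3 CPM on the high fat diet. In females 1 library, replicate 1, stood far above the rest, and in males the groups did not overlap, though the lowest high fat diet library (82.1 CPM) was close to the highest normal diet one (82 CPM). Neither diet log2 fold change was called, at 0.74 ± 0.33 in females (adjusted p = 0.166) and 0.56 ± 0.33 in males (adjusted p = 0.292). With the offset for transcript length, added after the data were seen and described with the sex differences, the female value was 0.82 and called (adjusted p = 0.0494). With that female library left out of the fit, the female value was 0.14 (adjusted p = 0.673), and the male value was 0.56 and the adjusted p 0.032. Apoc2 shares up to 265 bases of exon on the same strand with Gm44805, which had 217 to 503 expected counts per library, so the division of reads between them is uncertain.

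Apoe, Apoc1, Apoc3 and Apoa2 had diet log2 fold changes between -0.10 and 0.19 across both sexes, and none was called. Their intervals in females ran from -0.23 to 0.33 for Apoe, from -0.32 to 0.47 for Apoc1, from -0.46 to 0.25 for Apoc3 and from -0.42 to 0.28 for Apoa2. In males on the high fat diet, replicates 2 and 3 lay above replicates 1 and 4 for each of these genes, for example 2671 and 2812 against 1802 and 1786 CPM for Apoa2. The deviations of Apoa2, Apoc1, Apoc3 and Apoe from their group means moved together across the 16 libraries, with Pearson's r between 0.90 and 0.94 for every pair, over libraries that share depth and composition. For Apoa4 and Apoc2 that value was 0.78.

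**Figure D3:**
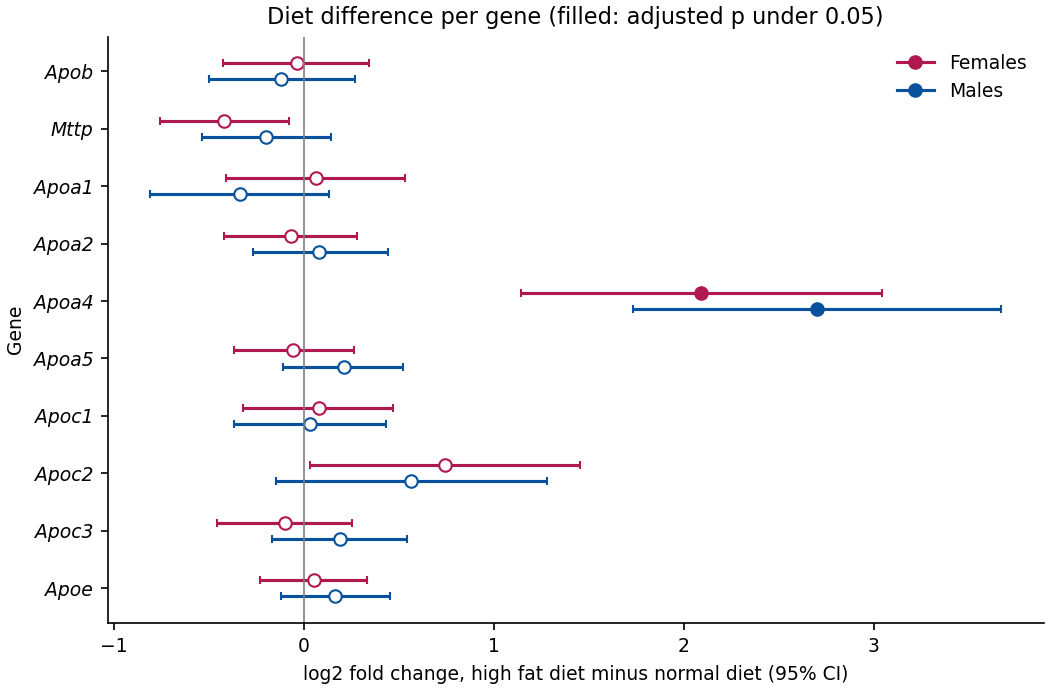
Log2 fold change between the high fat and the normal diet for the 10 genes in females and males, with 95% confidence intervals from edgeR; filled points passed an adjusted p of 0.05. Apoa4, at 2.09 in females and 2.70 in males, is the one gene with filled points.

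In a bulk sample, fewer cells of a type and less RNA per cell cannot be told apart. Apoa4 is also a gene of enterocytes, so enterocyte markers were read. Lct, Sis and Alpi, the defining digestive enzymes, were at 0 in all 16 libraries, as was Cdx2, and Vil1 was at most 0.25 TPM. Fabp2, a fatty acid binding protein gene, was the 1 of 8 enterocyte markers that passed the filter, and it was called higher on the high fat diet, with log2 fold changes of 1.06 ± 0.29 in females (adjusted p = 0.0302) and 1.10 ± 0.29 in males (adjusted p = 0.0258). The summed level of the 8 enterocyte markers, almost all of it Fabp2, was 224.3 to 514.4 against 120.4 to 162.1 TPM in females and 123.5 to 325.1 against 88.6 to 122.1 TPM in males. Of 8 macrophage markers 3 (Cd68, Csf1r and Cd5l) were called higher in females, and their summed level was 299.4 to 482.7 TPM in females on the high fat diet and 161.2 to 221 TPM in females on the normal diet, and its part in the results in females was not tested. The summed level of the 7 hepatocyte markers in males was 47773 to 57946 TPM on the high fat diet and 60925 to 73017 TPM on the normal diet, with 2 of the 7 (Alb and Serpina1a) called lower. These calls depended on the scaling: 0 were called lower with library totals, 1 with each TPM fit and 3 with the length offset. In males 3 of 5 lipid-associated macrophage markers (Trem2, Gpnmb and Mmp12) were called higher and 1 (Cd9) lower, with sums of 60.5 to 104.4 against 48.2 to 69.2 TPM. The 6 stellate cell markers summed to 157.8 to 210.3 against 127.4 to 146.1 TPM in males, with 0 called by edgeR, 4 of them at an unadjusted p under 0.05, and 1 called higher by limma on log2 TPM. In females 2 of 5 lipid-associated macrophage markers (Gpnmb and Mmp12) were called higher, with sums of 70.1 to 117.3 against 58.3 to 86.2 TPM. By limma on log2 TPM 0 of the 4 tested were called. Of the 6 stellate cell markers 2 (Des and Col1a1) were called higher in females, at 206.1 to 228.2 against 188.4 to 206.5 TPM in sum. All these sums are in TPM and are to be read beside a shift of that scale. On the log2 of TPM plus 1, the median diet difference of all genes was 0.17 in females and 0.05 in males. Cps1 was the 1 hepatocyte marker called lower in females, and 0 were called lower there with library totals or with TPM. Of all genes, 5.74% were called higher and 5.76% lower in females, and 6.03% and 5.36% in males. The part of these marker lists in the results was not tested.

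With the normal diet, Apoc3 read 1015, 934.1, 724.3 and 883.4 CPM in females and 610.8, 462.7, 447.5 and 407.8 CPM in males. High fat diet libraries read 983.9, 818.5, 799.3 and 711.7 CPM in females and 429.6, 647.6, 671.9 and 444.5 CPM in males. All female libraries lay above all male libraries on each diet. Females minus males, the log2 fold change was 0.88 ± 0.17 on the normal diet (adjusted p = 0.00228) and 0.59 ± 0.17 on the high fat diet (adjusted p = 0.0201). The first call held under all 26 alternatives. The second was lost without replicate 1 of the females on the high fat diet (0.50, adjusted p = 0.0621) and without replicate 4 of the males on that diet (0.51, adjusted p = 0.0712).

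Apoa2 was higher in females on the normal diet, with 3359, 3135, 2819 and 2914 CPM in females against 2831, 1821, 2042 and 1868 CPM in males. Male replicate 1 overlapped the female libraries. Its log2 fold change was 0.51 ± 0.17 (adjusted p = 0.0458), and 10 of the 16 fits that each left out 1 library lost the call, with values from 0.45 to 0.56. With the high fat diet it was 0.36 ± 0.17 and not called (adjusted p = 0.133). Apoc1, a small inhibitor of lipid transfer and clearance, differed by 0.41 ± 0.19 on the normal diet (adjusted p = 0.155) and 0.45 ± 0.19 on the high fat diet (adjusted p = 0.0991), and neither was called. With library totals in place of TMM, both Apoa2 (0.49, adjusted p = 0.0403) and Apoc1 (0.58, adjusted p = 0.0356) were called on the high fat diet, whereas with an offset for transcript length they were 0.17 and 0.25 and not called.

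Apob did not overlap between the sexes on the normal diet, where the highest female library had 4670 CPM and the lowest male library 4866 CPM. Its log2 fold change was -0.50 ± 0.19 and was not called by edgeR (adjusted p = 0.076), while DESeq2 called it (-0.49, adjusted p = 0.0411). For the high fat diet it was -0.42 ± 0.18 (adjusted p = 0.11), and without female replicate 2 of that diet, which had 5096 CPM, it was -0.64 with an adjusted p of 0.015. Apoa4 also did not overlap between the sexes on the normal diet, at 155.8 to 226 CPM in females and 72.7 to 118.6 CPM in males, with a log2 fold change of 0.84 ± 0.43 (adjusted p = 0.202). In a fit to only those 2 groups it was called, at 0.85 with an adjusted p of 0.00419. Apoa1, Apoa5, Apoc2, Apoe and Mttp had sex differences between -0.27 and 0.32 on both diets, and none was called.

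Between the sexes on the normal diet, 2 of the 10 genes were called higher in females and 0 lower, where 7.03% of all genes were higher and 8.68% lower. For the high fat diet the counts were 1 and 0, beside 8.84% and 11.6%. The libraries did not overlap for 3 of the 10 genes on the normal diet (Apoa4 and Apoc3 higher, Apob lower) and for 1 on the high fat diet (Apoc3), beside 22.0% and 22.7% of all genes. The median over the 10 genes was 0.19 on the normal diet and 0.22 on the high fat diet, beside 0.00 and -0.01 over all genes. These comparisons share libraries with the diet comparisons, so their values are not independent. The summed level of the 7 hepatocyte markers was 75035 to 88056 TPM in females and 60925 to 73017 TPM in males on the normal diet, and 75807 to 85544 against 47773 to 57946 TPM with the high fat diet, and its part in the sex differences was not tested. With the high fat diet 5 of the 8 macrophage markers were called higher in females, with sums of 299.4 to 482.7 TPM against 135.7 to 281.7 TPM in males, and their part was not tested either. On the log2 of TPM plus 1, the median of all genes was itself 0.12 higher in females than in males on the high fat diet.

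**Figure D4:**
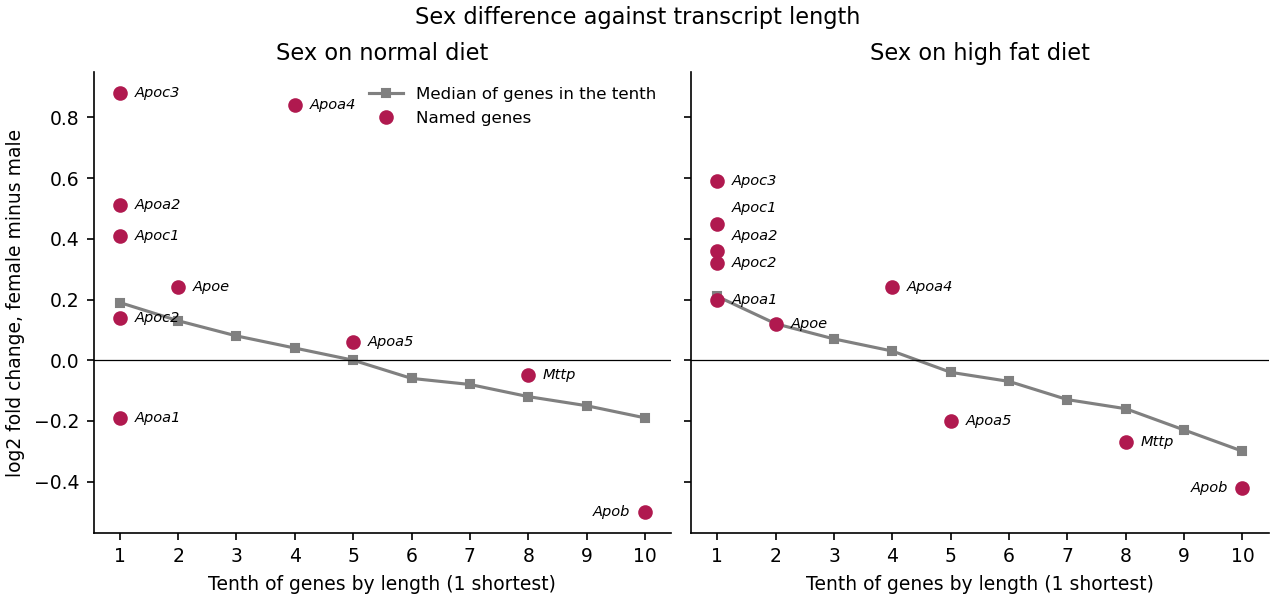
Log2 fold change between females and males against transcript length, in 10 bins of genes from shortest (1) to longest (10). Grey marks the median of the genes in each bin with a mean log2 CPM of 3 or more, and red the 10 named genes. The grey line falls from 0.19 to -0.19 for the normal diet, and for the high fat diet it falls from 0.21 to -0.30.

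A measured length trend lies beside these sex differences. The 14781 genes tested were placed in 10 bins by length. The median of each bin was taken over its genes whose mean log2 CPM was 3 or more. The shortest bin had a median log2 fold change of 0.19 on the normal diet and 0.21 with the high fat diet, and the longest bin -0.19 and -0.30. Apoa1, Apoa2, Apoc1, Apoc2 and Apoc3 are in the shortest bin and Apob is in the longest. In an added fit that carried an offset for this trend in each library, Apoc3 stayed called on the normal diet (0.66, adjusted p = 0.00314) and on the high fat diet (0.40, adjusted p = 0.0418). Apoa2 on the normal diet was 0.29 and no longer called (adjusted p = 0.169), and on the high fat diet it was 0.17 (adjusted p = 0.417). Apoc1 was 0.17 on the normal diet (adjusted p = 0.425) and 0.25 with the high fat diet (adjusted p = 0.213). Apob was -0.39 on the normal diet and called (adjusted p = 0.0492), and -0.12 with the high fat diet and not called (adjusted p = 0.564). Relative to the mean of all 16 libraries, replicate 1 of the females on the high fat diet was at 0.30 in the shortest bin and at -0.56, the lowest of the 16, in the longest. Apoa4 in the diet comparison was 2.15 in females and 2.75 in males with the offset.

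**Figure D5:**
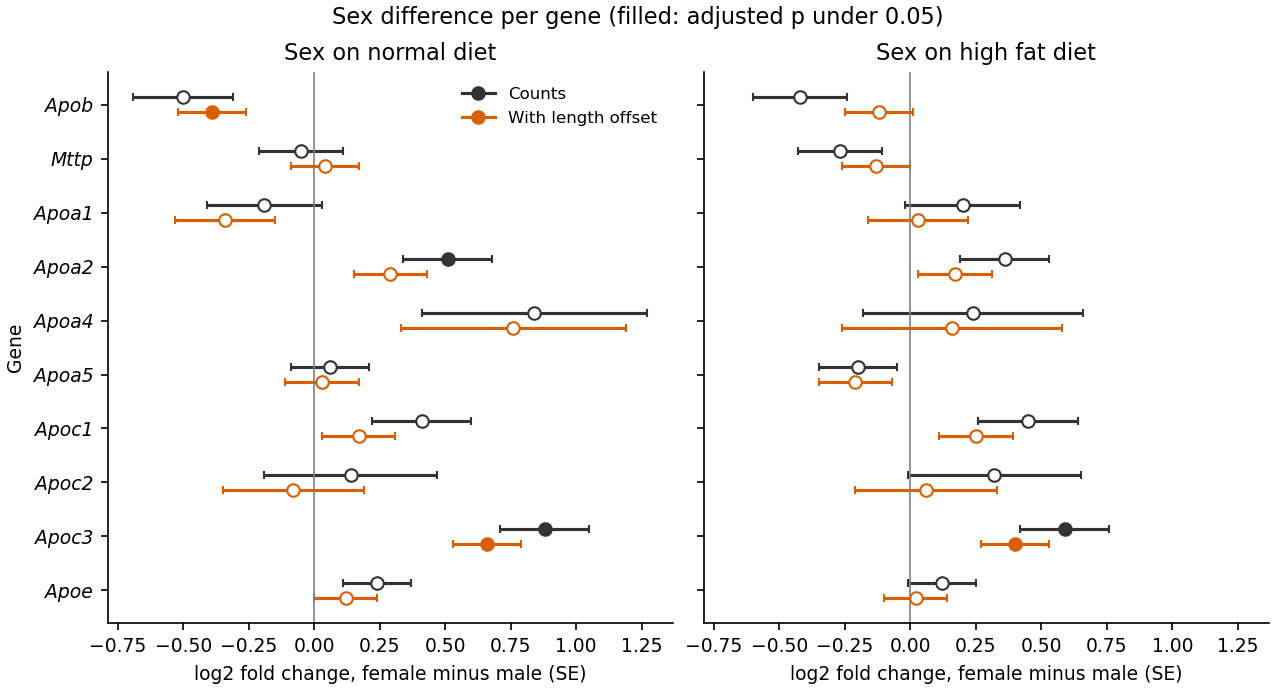
Log2 fold change between females and males on each diet, with SE, from the fit to counts (black) and from the fit with the length offset (orange); filled points passed an adjusted p of 0.05. Apoc3 is filled in both fits on both diets, and Apoa2 on the normal diet is filled only without the offset.

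Other genes of the pathway were read as lists, with counts of the genes called, except for lipoprotein lipase action and clearance, where only some genes are reported. Apobec1, the deaminase that edits Apob mRNA to the short form of the protein in mouse liver, was called higher on the high fat diet in both sexes, from 7.93 ± 0.789 to 11.9 ± 1.01 CPM in females and from 8.28 ± 0.72 to 13.1 ± 2.12 CPM in males. Its log2 fold change was 0.59 ± 0.13 in females (adjusted p = 0.00658) and 0.66 ± 0.13 in males (adjusted p = 0.00273), and both calls held under all 26 alternatives. The other 2 genes of the editing list, A1cf and Rbm47, were not called.

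Among 31 genes of VLDL lipidation and secretion, 0 were called higher and 5 lower in females on the high fat diet, beside 5.74% and 5.76% of all genes. Among the 5, Vmp1 was at -0.46, Sec23a at -0.44, Sar1b at -0.56 and Tmem41b at -0.46. With library totals, 2 were called higher and 0 lower, and with TPM, 3 higher and 0 lower, so the direction of this list depended on the scaling, which shifted the median of all genes in females by 0.19 and by 0.17. The calls of Vmp1, Sec23a, Sar1b and Tmem41b were lost in 7, 9, 8 and 9 of the 26 alternatives, library totals among them. In males 2 were higher and 2 lower, beside 6.03% and 5.36% of all genes. Cidec, a lipid droplet protein (2.05 ± 0.42), and Plin2, a droplet coat protein (0.81 ± 0.21), rose, and Soat2 (-0.43 ± 0.13, lost in 9 of 26 alternatives) and Tmem41b (-0.75 ± 0.14) fell. The Plin2 call was lost without male replicate 1 of the normal diet. Tm6sf2, a gene needed for VLDL lipidation, was 2.21-fold higher in females than in males on the normal diet and 2.72-fold higher on the high fat diet, while Sort1 was lower in females on the normal diet, by 2.73-fold, and on the high fat diet, by 1.73-fold.

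The list of HDL assembly and remodelling held 10 genes, with receptors such as Cd36 among them. On the high fat diet 0 were called higher and 1 lower in females, and 2 higher and 1 lower in males. Of all genes, 5.74% were called higher and 5.76% lower in females, and 6.03% and 5.36% in males. Lipg, which encodes endothelial lipase, was called lower in both sexes (-1.66 ± 0.21 and -1.38 ± 0.21), and Cd36 (1.66 ± 0.24) and Scarb1 (0.43 ± 0.12) were higher in males. The Scarb1 call was lost in 6 of 26 alternatives. Among the genes of lipoprotein lipase action and clearance reported here, Lpl, the lipase itself, was higher (1.83 ± 0.36) and Angptl4, an inhibitor of it, lower (-1.37 ± 0.28) in females, and Vldlr, a receptor for triglyceride-rich particles, was higher in males (2.12 ± 0.47). On the log2 of TPM plus 1 the male Vldlr value was 0.38 and not called (limma, adjusted p = 0.155), and on the log2 of TPM plus 0.1 it was not called either. Between the sexes on the normal diet, Vldlr was 12.2-fold higher in females, a log2 fold change of 3.61 that was 1.15 on the log2 of TPM plus 1 and was called in both. Over the 26 alternatives this value ran from 1.15 to 3.82, so the size of the difference depended on the processing. Of 14 genes of other apolipoproteins and related proteins, 13 were tested. On the high fat diet 3 were called higher and 1 lower in females, and 0 higher and 1 lower in males, beside the same shares of all genes. Apol9a, Apol9b and Apobr were higher and Apoo lower in females (Apoo lost its call in 5 of 26 alternatives and Apol9b in 1), and Apom was lower in males (-0.85 ± 0.17). Apobr, which encodes a receptor and not an apolipoprotein, was low, at a mean of 1.08 TPM in high fat diet females and 0.38 TPM in normal diet females. A diet call in 1 sex only does not show that the sexes differed in their diet change. In the interaction test by edgeR, 0 of the genes named here or in the VLDL list were called, beside 0.677% of all genes. With the length offset, 1 gene of the HDL list was called lower in that test.

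Of 29 transcription regulators of these genes, 5 were called higher and 7 lower in females on the high fat diet, and 1 higher and 4 lower in males, beside 5.74% and 5.76% of all genes in females and 6.03% and 5.36% in males. The balance in females depended on the scaling: library totals gave 8 higher and 3 lower, and both TPM fits gave 9 higher and 3 lower of the 28 they tested. Hnf4a, a nuclear receptor of hepatocyte genes, fell from 557.3 ± 10.1 to 368.7 ± 42.4 CPM in females and from 701.6 ± 102.9 to 507.8 ± 18.8 CPM in males, with log2 fold changes of -0.60 ± 0.12 (adjusted p = 0.00331) and -0.47 ± 0.11 (adjusted p = 0.0139). Creb3l3, a membrane-bound factor known to activate Apoa4, was not called: 231.3 ± 27.8 against 238.2 ± 21.9 CPM in females and 259.2 ± 18.3 against 271.7 ± 9.06 CPM in males, with intervals from -0.26 to 0.18 and from -0.29 to 0.15. Nr1d1, a clock repressor, was 3.47-fold higher on the high fat diet in females and 3.76-fold lower in males.

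By likeness of log2 CPM across the 16 libraries, the 2 genes nearest to Apoa4 among 10639 candidates were Anp32a and Gm12354, each with Pearson's r of 0.930, over libraries that share the diet groups. Anp32a had 117.3 ± 9.16 CPM on the high fat diet and 84.5 ± 8.54 CPM on the normal diet in females, and 112.8 ± 17.5 against 80.1 ± 4.04 CPM in males. Gm12354 had 5.41 ± 1.25 against 3.17 ± 0.575 CPM in females and 4.93 ± 1.13 against 2.05 ± 0.25 CPM in males. Apoa4 overlaps 2 genes on the opposite strand, Gm10680 and Gm47528, which reached 33.6 and 15.1 expected counts at most, against at least 1766 for Apoa4, and the strand setting of the counting is not given in the sources used here.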

How the data were processed

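Liver RNA of 16 libraries in 4 groups was measured. The deposited expected counts are RSEM estimates per gene, and the authors also deposited TPM, which divides by transcript length; STAR, RSEM and GRCm39 are named per the submitters' processing notes, without versions. Strand setting and counting options are not given in the sources used here. Of the deposited count entries 4.89% were not whole, and counts were rounded. Genes passing filterByExpr (14781, holding 99.9% of counts) were fitted with edgeR 4.0.16 in R 4.3.3, with the quasi-likelihood test, robust settings, TMM scaling and 1 mean per group over all 16 libraries. Called means a Benjamini-Hochberg adjusted p under 0.05 over all genes, two-sided. DESeq2 1.42.0 and limma 3.58.1 (log2 of TPM plus 1 or 0.1) were alternatives. Symbols matched 51487 of 78317 identifiers (98.97% of counts). Per-gene overlaps came from GENCODE M21 (GRCm38), an older build than the files, so no gene coordinates are given from it. The named genes are the 10 members, at most 4 called genes with the smallest p per list and comparison, the 2 nearest patterns, and genes that a member result turns on, chosen after their values were seen (Creb3l3, Fabp2 and other enterocyte markers). Some genes that this rule chose are not reported here. The lists and members were chosen with earlier results of these data known. Scripts were tested on simulated data. The labels give a single batch for all 16 libraries.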

Additional observations from a re-analysis of the deposited data

Results flagged for a closer look

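In 40 groups of 4 libraries (10 genes in 4 groups), 3 had a single library far from the other 3 by Dixon's test, where chance gives about 1 in 20 groups. Apoa5 in males on the high fat diet was lowest in replicate 4, at 749.5 CPM. Apoc2 in females on the high fat diet was highest in replicate 1, at 262.5 CPM. Apoe in males on the normal diet was highest in replicate 1, at 11361 CPM. Among the transcription regulators, the diet change of Nr1d1 differed between the sexes by 3.71 (females minus males, log2), past an adjusted p of 0.05 by edgeR in the interaction test.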

How the results depend on the processing

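Of 1290 values of the 10 genes under up to 26 alternatives each, 1261 kept their side of the threshold, 13 lost a call and 16 gained one. The 1261 include values of genes not called that changed sign. In all, 55 values of genes not called changed sign, and no called value reversed. The number of the 10 genes called between the diets in females was 1, and 2 with the length offset, an alternative chosen after seeing the data; leaving out 1 library each gave 1 to 2. In males it was 1, and 1 to 2 with a library left out. Between the sexes on the normal diet it was 2, and 1 to 3 with a library left out. On the high fat diet it was 1, and 3 with library totals, with TPM plus 1 and with TPM plus 0.1; leaving out a library gave 0 to 2. Interaction calls stayed at 0 in each alternative run. Over all genes the female diet count was 1700 (2690 with library totals, 2582 with TPM plus 1, 947 without replicate 4 of the high fat females), the male count 1684 (1113 without replicate 3 of the normal diet males), and the interaction count 100 (337 with DESeq2, 58 with replicates 2 and 3 of the high fat males averaged, 167 with the length offset, 51 to 176 with a library left out). The sex counts were 2322 (1325 at the least) and 3022 (1958 in a fit to only the groups compared, 1974 at the least with a library left out). The cause of these movements was not tested. Same-numbered replicates were not treated as paired in the main fit. Correlations of their deviations lay between -0.16 and 0.18, and no comparison had every correlation above 0.1. In the sex comparisons all of them were positive, from 0.02 to 0.18. With replicate number as a block, the sex counts over all genes were 2685 on the normal diet and 3445 on the high fat diet. These values do not settle whether same-numbered replicates were related. With the replicate block, Apoa4 was 2.07 in females (adjusted p = 0.0306) and 2.68 in males (adjusted p = 0.00973), the members called were 1, 1, 0, 2 and 1, and the block changed no call of the 10 genes. The precision is limited by 4 libraries a group.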
